A study of Mus musculus with 14 samples.

Results

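The 7 genes described here belong to cholesterol synthesis. Hmgcs1, Idi1, Fdft1, Sqle, and Lss encode enzymes of the pathway, Insig1 encodes a sterol-dependent brake on it, and Srebf2 encodes its main transcription factor, SREBP-2. They were chosen by symbol, after the Ensembl identifiers of the files were matched to the mm10 annotation, and make up 7 of 53801 genes. All 7 had enough counts to be among the 16287 genes tested. The genes were measured by bulk RNA-seq in 14 tumors of CT26, a mouse colorectal cancer line, grown from barcoded cells that carried a retroviral DNA tag, under the skin of the left and right flanks of wild-type female Balb/c mice aged 6 to 8 weeks. Mice received control IgG or anti-PD-1, an antibody against an inhibitory receptor of T cells, at 200 μg from day 7 and then every 3 days for 5 doses, and tumors were taken 3 days after the last dose. Tumors under anti-PD-1 were named responders or non-responders by the authors from their final size relative to the control IgG cohort, so that tumor size and response cannot be told apart. The authors set a separate size cut-off for each name, and tumors of a size between the cut-offs had neither name. There were 5 control IgG tumors from 4 mice, 5 responders from 4 mice, and 4 non-responders from 3 mice, named by mouse number and flank (14L is the left tumor of mouse 14). The pairs 14L with 14R, 30L with 30R, and 33L with 33R came from the same mouse each, and are not independent.

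Cholesterol is made from acetyl-CoA through mevalonate, isoprenoid pyrophosphates, squalene, and lanosterol. SREBP-2 is held in the endoplasmic reticulum with its escort SCAP by INSIG proteins while sterols are plentiful, and when sterols fall it is cut in the Golgi and drives transcription of the enzymes of the pathway, of INSIG1, and of its own gene. Proliferating cells use the pathway for membranes, and SREBP-1, the related factor, acts mostly on fatty acid synthesis.

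Promoter sequence was looked at because the genes share this regulator. RefSeq promoter windows of GRCm38 (mm10), from 250 bases before to 50 bases after the annotated start, were matched for 5 of the 7 genes, and Sqle and Fdft1 were not matched. Each window was searched on both strands for TCACCCCA (a core of the sterol regulatory element, which SREBP binds), CCAAT (bound by NF-Y), and GGGCGG (the GC box, bound by Sp1). None of the matches in these windows overlapped each other. TCACCCCA was in the windows of Hmgcs1 and Srebf2, 2 of the 5, and in 1.56% of all 32851 windows. CCAAT was in 5 of 5 windows, against 37.4% of all windows, and GGGCGG in 5 of 5, against 35.7%. Among 14 other cholesterol enzymes, 12 were matched, of which 11 held CCAAT, 11 held GGGCGG, and 0 held TCACCCCA. A match describes these letters alone, and none was examined for binding. The stretches printed here, all on the plus strand and ending before the annotated gene start, are shown for the 4 genes with a match upstream of that start, with all matches on either strand in capitals. They lie at chr13:119690101-119690350 for Hmgcs1, chr10:76531355-76531587 for Lss, chr5:28071162-28071362 for Insig1, and chr15:82147019-82147180 for Srebf2.
Hmgcs1: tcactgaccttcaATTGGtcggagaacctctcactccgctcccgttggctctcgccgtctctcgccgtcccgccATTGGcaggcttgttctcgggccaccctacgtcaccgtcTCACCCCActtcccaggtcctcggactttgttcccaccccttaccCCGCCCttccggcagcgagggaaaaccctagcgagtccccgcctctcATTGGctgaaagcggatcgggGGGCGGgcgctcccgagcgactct
Srebf2: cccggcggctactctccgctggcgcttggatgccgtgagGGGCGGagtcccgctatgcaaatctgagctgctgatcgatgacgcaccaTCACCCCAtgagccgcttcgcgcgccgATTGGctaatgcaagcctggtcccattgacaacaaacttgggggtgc
Insig1: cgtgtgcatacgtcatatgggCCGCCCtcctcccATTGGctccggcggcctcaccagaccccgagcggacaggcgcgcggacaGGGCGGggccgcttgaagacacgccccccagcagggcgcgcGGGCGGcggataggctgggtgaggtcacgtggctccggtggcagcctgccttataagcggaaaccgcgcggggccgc
Lss: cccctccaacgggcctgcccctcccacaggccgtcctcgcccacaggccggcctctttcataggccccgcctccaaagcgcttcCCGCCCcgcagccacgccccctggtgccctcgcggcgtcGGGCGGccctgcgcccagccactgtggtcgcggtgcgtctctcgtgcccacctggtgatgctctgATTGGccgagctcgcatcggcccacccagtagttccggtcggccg
In Hmgcs1, TCACCCCA began 137 bases before the RefSeq start, with CCAAT on the opposite strand at 237, 176, and 45 bases before it. In Srebf2, it began 162 bases before the start and a CCAAT on the opposite strand 135 bases before it. Insig1 had 1 CCAAT match and Lss had 1, both on the opposite strand. The matches of Idi1 lay after its annotated gene start, and that stretch is not shown.

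Total expected counts, RSEM's estimates of fragments per gene, were between 33237744 and 48481461 per tumor. Markers named for colon epithelium were uneven in these tumors. Krt20 was at 107 to 340 TPM and Krt18 at 8.56 to 16.7 TPM, whereas Cdx2 and Vil1 were at most 0.41 and 0.18 TPM. Since whole tumors were sequenced, fewer cells of a type and less RNA per cell cannot be told apart. The summed level of 8 T cell markers was 36.5 to 80.4 TPM in responders, 14.8 to 24 TPM in non-responders, and 15.4 to 36.9 TPM in control IgG tumors, and that of 8 macrophage markers was 1780 to 2420 TPM, 1370 to 1600 TPM, and 1460 to 1710 TPM. Tumor 33R had the longest mean fragment length (287.8 bases, against 268.7 to 282.4 bases in the other 13). It also stood apart from its group in counts over all genes tested. The chi-square per gene, which grows as the counts of a pair of libraries differ, was 130 to 188 between 33R and the other non-responders. Between those others it was 31.6 to 36.5.

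Levels are given first for each gene in each tumor, as CPM, the share of a gene in all counts after TMM scaling, which is compared between tumors and not between genes. TPM, which also divides by gene length, is used for levels between genes. The plot of CPM by tumor shows all 7 genes.

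**Figure D1:**
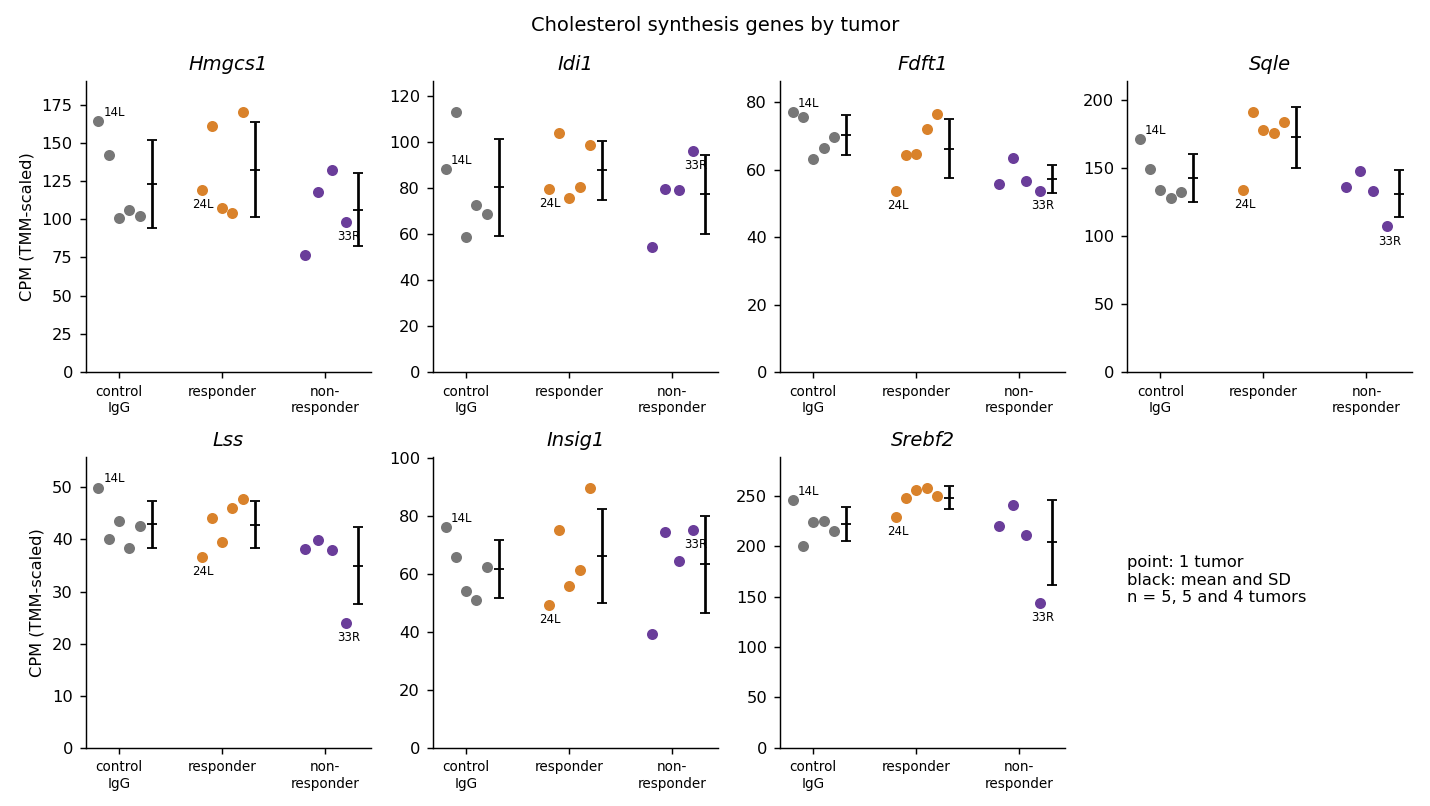
CPM (TMM-scaled, y axis from 0) of each gene in each tumor, by group, with the group mean and SD in black (n = 5, 5, and 4 tumors). Responders and non-responders overlap in every panel, and the low point of 33R in Lss (23.9 CPM) and Srebf2 (144 CPM) and of 24L in Sqle (134 CPM) can be seen.

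Hmgcs1 (ENSMUSG00000093930, chr13:119690379-119708260) encodes the synthase that makes HMG-CoA from acetyl-CoA units. In control IgG tumors, its CPM was 164 in 14L, 142 in 14R, 101 in 16R, 106 in 17R, and 102 in 20R. Responders had 119 in 24L, 161 in 26R, 107 in 30L, 104 in 30R, and 170 in 35L. Non-responders had 76.7 in 29L, 118 in 32R, 132 in 33L, and 98.4 in 33R. The 3 groups overlapped, and in each the highest tumor was well above the lowest. The high control values were both from mouse 14, and the lowest value of all was the non-responder 29L. Mean CPM ± SD was 123 ± 28.2 over the 5 control IgG tumors, 132 ± 31.2 over the 5 responders, and 106 ± 24.1 over the 4 non-responders.

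Idi1 (ENSMUSG00000058258, chr13:8885501-8892451) encodes the isomerase that interconverts the isoprenoid units. The control IgG tumors 14L, 14R, 16R, 17R, and 20R had 88.3, 113, 58.9, 72.7, and 68.9 CPM. The responders 24L, 26R, 30L, 30R, and 35L had 79.6, 104, 75.9, 80.4, and 98.9 CPM, and the non-responders 29L, 32R, 33L, and 33R had 54.5, 79.8, 79.2, and 96.1 CPM. Idi1 in 33R was the highest of the non-responders, whereas 4 of the other 6 genes had their lowest non-responder value there. Both the highest and the second lowest of all values were in control IgG tumors, and the groups overlapped throughout. Mean CPM ± SD was 80.3 ± 20.9, 87.7 ± 12.6, and 77.4 ± 17.2 in the order of these groups.

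Fdft1 (ENSMUSG00000021273, chr14:63145150-63179578, minus strand), squalene synthase, commits isoprenoids to sterols. Its CPM varied least of the 7 genes, by 1.44-fold between the lowest and the highest tumor. Control IgG values were 77, 75.5, 63.1, 66.3, and 69.6 CPM in 14L, 14R, 16R, 17R, and 20R. Those of responders were 53.6, 64.3, 64.6, 72, and 76.4 CPM in 24L, 26R, 30L, 30R, and 35L. Those of non-responders were 55.7, 63.3, 56.6, and 53.7 CPM in 29L, 32R, 33L, and 33R. Of the non-responders, 3 lay below all control IgG tumors, and the overlap with that group came from 32R alone, by 63.3 against 63.1 CPM. Responders reached from the lowest non-responder to nearly the highest control IgG tumor. Their mean CPM ± SD was 66.2 ± 8.71, against 70.3 ± 5.93 in control IgG tumors and 57.3 ± 4.16 in non-responders.

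Sqle (ENSMUSG00000022351, chr15:59315077-59331192) encodes squalene epoxidase, an oxygen-dependent and rate-limiting step of the later pathway. Control IgG tumors 14L, 14R, 16R, 17R, and 20R had 171, 149, 134, 128, and 132 CPM. Responders had 134 in 24L, 191 in 26R, 178 in 30L, 176 in 30R, and 184 in 35L. Non-responders had 136 in 29L, 148 in 32R, 133 in 33L, and 107 in 33R. Except for 24L, responders were higher than every tumor of both other groups, and 24L lay among the non-responders. Responders averaged 172 ± 22.5 CPM (± SD), non-responders 131 ± 17.3, and control IgG tumors 143 ± 17.5.

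Lss (ENSMUSG00000033105, chr10:76531588-76557138), lanosterol synthase, closes the sterol rings. In control IgG tumors 14L, 14R, 16R, 17R, and 20R it was at 49.9, 40, 43.6, 38.4, and 42.5 CPM. In responders 24L, 26R, 30L, 30R, and 35L it was at 36.7, 44.2, 39.6, 46.1, and 47.7 CPM. In non-responders 29L, 32R, and 33L it was at 38.1, 39.9, and 38 CPM, and in 33R at 23.9 CPM. All tumors but 33R thus lay in a narrow band, in which the groups overlapped. The other tumor of the same mouse, 33L, was within that band. Mean CPM ± SD was 42.9 ± 4.41 in control IgG tumors, 42.9 ± 4.58 in responders, and 35 ± 7.43 in non-responders.

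Insig1 (ENSMUSG00000045294, chr5:28071363-28078662) encodes the protein that retains SREBP with SCAP, and is itself a target of SREBP. It had the widest range of the 7 genes, 2.28-fold. CPM was 76.2 in 14L, 65.8 in 14R, 54.3 in 16R, 50.9 in 17R, and 62.3 in 20R, all control IgG tumors. It was 49.2 in 24L, 75.3 in 26R, 55.9 in 30L, 61.3 in 30R, and 89.8 in 35L, all responders. The lowest value of all was in a non-responder, 39.3 in 29L, and the other non-responders had 74.5 in 32R, 64.4 in 33L, and 75.4 in 33R. No group stood apart, with means ± SD of 61.9 ± 9.96 (control IgG), 66.3 ± 16.3 (responders), and 63.4 ± 16.8 CPM (non-responders).

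Srebf2 (ENSMUSG00000022463, chr15:82147181-82205379) encodes SREBP-2. Its mRNA was at 246, 200, 224, 225, and 215 CPM in the control IgG tumors 14L, 14R, 16R, 17R, and 20R. Responders were close together, at 229, 248, 256, 258, and 250 CPM in 24L, 26R, 30L, 30R, and 35L. Non-responders were at 220 CPM in 29L, 241 in 32R, 211 in 33L, and 144 in 33R. Of the responders, 4 were above every other tumor, and 24L was below 32R and 14L. As with Lss, 33R was the lowest tumor. Mean CPM ± SD was 222 ± 17 in control IgG tumors, 248 ± 11.5 in responders, and 204 ± 41.9 in non-responders.

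Compared per length, Srebf2 and Sqle were the most abundant of the 7 genes and Lss the least. Median TPM over the 14 tumors was 65.6 for Srebf2, 63.9 for Sqle, 48.5 for Hmgcs1, 38.8 for Idi1, 29.3 for Insig1, 27.8 for Fdft1, and 11.8 for Lss. Sqle ranked first in 8 tumors and Srebf2 in 6, so these neighbours in the order did not differ beyond their spread, and Insig1 and Fdft1 likewise exchanged the fifth and the sixth place. Hmgcs1 held rank 3 or 4 in every tumor, whereas Lss was last in all 14, at 4.85 to 17 TPM.

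The first comparison, responders with non-responders, asks what differed between tumors on the same antibody. All 7 genes had a higher fitted level in responders, and for none was the difference called. The median log2 fold change of the 7 genes was 0.28, against 0.006 over all genes tested, and 50.8% of all genes had a fold change above 0. At an adjusted p under 0.05 (edgeR's quasi-likelihood test with Benjamini-Hochberg adjustment over all genes), 0 of the 7 genes were called, where 9.9% of all genes were called and 5.08% were called higher in responders. At an unadjusted p under 0.05, 3 of the 7 passed in edgeR, where 27.8% of all genes did. DESeq2 called 1 of the 7, Sqle. In CPM, 0 of the 7 separated the groups in this direction, where 6.8% of all genes were higher in every responder than in every non-responder.

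Sqle had the largest difference of the 7, 1.32-fold, or 0.40 on the log2 scale (SE 0.12), and an edgeR adjusted p of 0.0528. Sqle was called under 5 of 11 other settings, over which its adjusted p ran from 0.0178 to 0.178. Without 24L, the responder that lay among the non-responders, edgeR gave Sqle an adjusted p of 0.0384. Without the control IgG tumor 14L, which is in neither group compared here, it was 0.0466. The filter, scaling, and estimate of spread, which all tumors share, were then computed without 14L. For Hmgcs1, the enzyme at the entry of the pathway, the log2 fold change was 0.32 (SE 0.20, edgeR adjusted p = 0.322), and 0.19 without 29L. Lss was at 0.29 (SE 0.14, edgeR adjusted p = 0.178), and at 0.17 without 33R. Srebf2 was at 0.28 (SE 0.12, edgeR adjusted p = 0.139), and at 0.16 without 33R. Both differences were thus smaller without the tumor that was lowest in these genes. Fdft1, with 0.21 (SE 0.10, edgeR adjusted p = 0.192), and Idi1, with 0.18 (SE 0.19, edgeR adjusted p = 0.564), were lower in the order, and Idi1 moved to 0.04 without 29L and 0.32 without 33R. Insig1, the SREBP brake, had 0.06 (SE 0.20, edgeR adjusted p = 0.872), and its sign turned without 29L (-0.11) or without 35L (-0.07).

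Separation depended on the scale. In TPM, Idi1, Fdft1, Sqle, Lss, and Srebf2 were each higher in all 5 responders than in all 4 non-responders, which is 5 of the 7 genes, where 15.4% of all genes were. Sqle, for example, was at 69.2 to 94.7 TPM in responders and 36.6 to 63.9 TPM in non-responders, and Lss at 12.5 to 16.3 and 4.85 to 10.9 TPM. Hmgcs1 (47.6 to 72.8 and 28.4 to 53.9 TPM) and Insig1 (26.6 to 46.8 and 18.9 to 33.4 TPM) overlapped on this scale too. The TPM scale itself was shifted between these groups, since the median gene was 0.169 higher in responders as log2(TPM + 1). Under limma on log2(TPM + 1), Sqle (log2 fold change 0.64, adjusted p = 0.022) and Fdft1 (0.43, adjusted p = 0.0345) were called, where 1969 genes were called higher in responders, against 827 in edgeR. Mean fragment length also differed, at 269.5 to 277 bases in responders and 277.5 to 287.8 bases in non-responders. Summed T cell and macrophage marker levels in TPM separated the same groups, as given above, and so did those of endothelial and proliferation markers, given below. By edgeR, 7 of 8 T cell markers and 1 of 8 macrophage markers were called higher in responders, where 5.08% of all genes were. The part of these in the differences of the 7 genes was not tested.

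**Figure D2:**
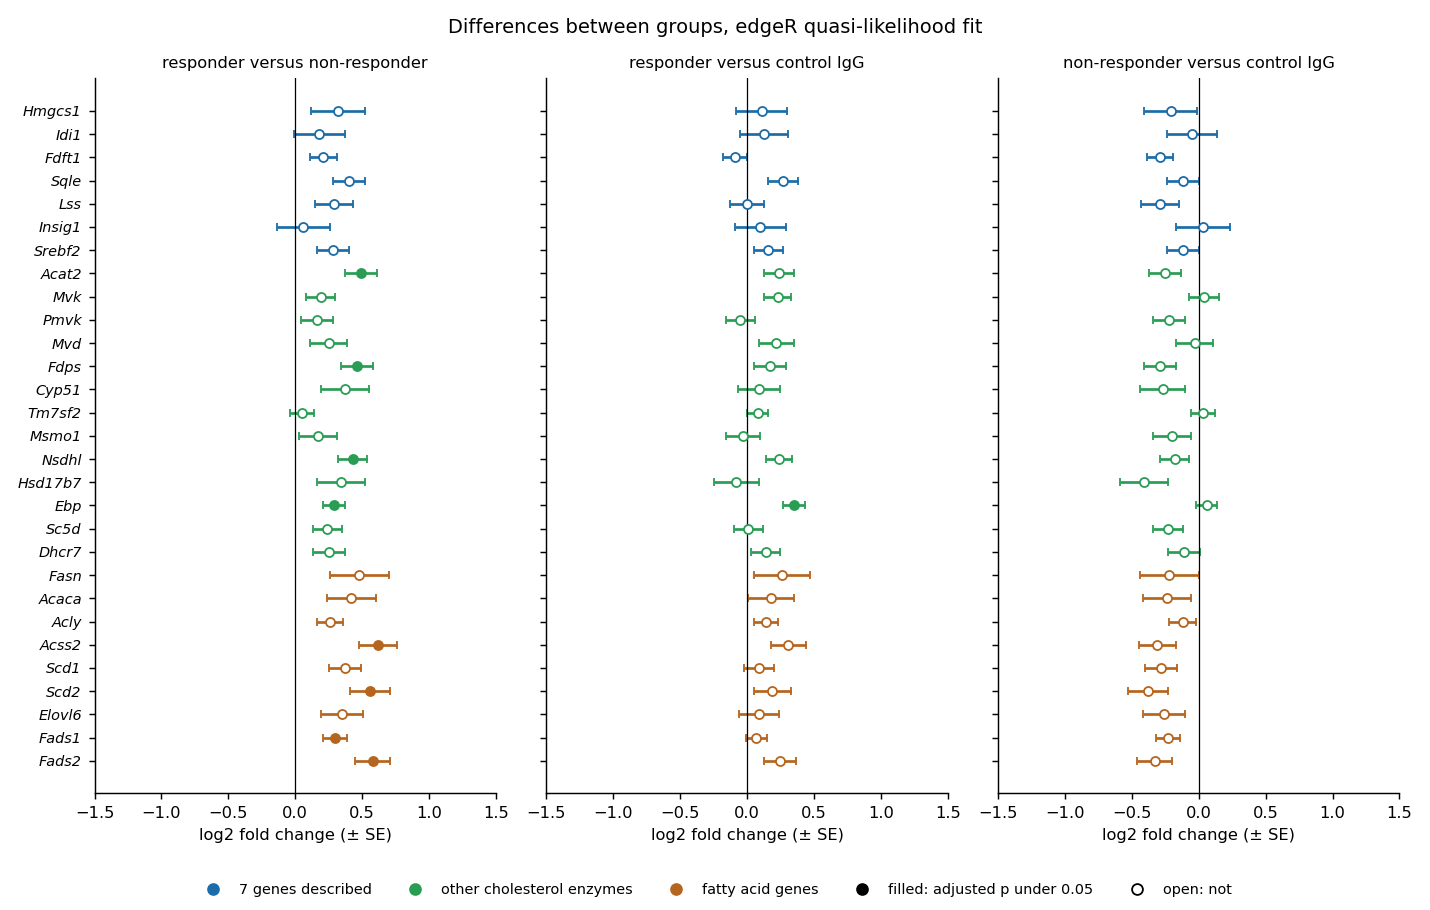
Log2 fold change (x axis) with its standard error from edgeR for the 7 genes, 13 of the 14 other cholesterol enzymes, and 9 fatty acid genes, in 3 comparisons; filled points have an adjusted p under 0.05. All 7 genes lie right of 0 between responders and non-responders with open points, and 4 of the other enzymes are filled there.

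Other enzymes of cholesterol synthesis moved in the same direction, and some passed the test. Of 14 that were tested, 14 had a higher fitted level in responders than in non-responders (median log2 fold change 0.27), where 50.8% of all genes had a fold change above 0. Of the 14, 4 were called higher and 0 lower, where 5.08% of all genes were called higher. Acat2, the thiolase that supplies acetoacetyl-CoA to Hmgcs1, rose 1.41-fold (log2 fold change 0.49, edgeR adjusted p = 0.0238), at 59.9 to 75.4 CPM in responders and 45.6 to 53.3 CPM in non-responders without overlap. Fdps, which makes the substrate of Fdft1, was 1.38-fold higher (0.46, edgeR adjusted p = 0.0318). Among enzymes after Lss, Nsdhl had 0.43 (edgeR adjusted p = 0.0291) and Ebp 0.29 (edgeR adjusted p = 0.0416). The responders did not overlap the non-responders in CPM for Acat2 and Ebp, and did overlap for Fdps and Nsdhl. Of the 14 enzymes, 2 were thus higher in every responder than in every non-responder, where 6.8% of all genes were. The sizes of these differences changed little when any 1 tumor was left out (Acat2 0.45 to 0.55, Fdps 0.42 to 0.54, Nsdhl 0.38 to 0.51, and Ebp 0.25 to 0.34), but the calls did. Without 30R 0 of the 14 were called, without 26R, 33R, or 35L 1 was, and without 30L, 32R, or 33L 2 were. With 1 library per mouse 0 were called, and with TPM 7 were, on the scale with 1969 genes called higher.

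Of 6 genes for the processing and regulation of SREBP, 1 was called higher in responders than in non-responders, where 5.08% of all genes were. This was Stard4, a sterol transfer protein and SREBP-2 target, with 0.45 on the log2 scale (edgeR adjusted p = 0.0368). Its call also ended under a length trend offset (0.30, edgeR adjusted p = 0.131), with 1 library per mouse, with the 2 groups alone, and without 1 tumor in 5 of 14 fits. Scap, which escorts SREBP, had 0.12 (edgeR adjusted p = 0.503). Insig2, the paralog of Insig1, had -0.17 (edgeR adjusted p = 0.243). Of 9 fatty acid synthesis genes, 9 had a higher fitted level in responders (median log2 fold change 0.42), where 50.8% of all genes had a fold change above 0. With 5.08% of all genes called higher, 4 of the 9 were called higher. They were Acss2, which makes acetyl-CoA from acetate (0.62, edgeR adjusted p = 0.0178), the desaturases Fads2 (0.58, edgeR adjusted p = 0.0188) and Scd2 (0.56, edgeR adjusted p = 0.0349), and Fads1 (0.30, edgeR adjusted p = 0.0437). Acss2 and Fads2 were called in 14 of 14 fits without 1 tumor, Scd2 in 8, and Fads1 in 3. Fads1 was also not called with a length trend offset (0.21), no filter, the 2 groups alone, or 1 library per mouse. Acss2 was not called with 1 library per mouse (0.53, edgeR adjusted p = 0.0828). Scd2 was not called with the 2 groups alone (0.58, edgeR adjusted p = 0.0776). The summed level of the 9 genes was 649 to 709 TPM in responders (median 654) and 245 to 516 TPM in non-responders (median 483). The TPM scale was shifted between these groups, as given above. In CPM, 33R was the lowest non-responder for each of the 9 genes. Without mouse 33, both of whose tumors were non-responders, 0 of the 14 enzymes, 0 of the 6, and 0 of the 9 were called, and 59 of all genes were called in place of 1612. The log2 fold changes then were 0.51 for Acat2, 0.38 for Fdps, 0.33 for Nsdhl, 0.23 for Ebp, 0.38 for Stard4, 0.64 for Acss2, 0.50 for Fads2, 0.40 for Scd2, and 0.22 for Fads1, so that lost calls did not always go with smaller differences.

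Proliferation was looked at beside these genes, since dividing cells use the pathway. Of 12 proliferation genes, 0 were called between responders and non-responders by edgeR (1 had an unadjusted p under 0.05), with a median log2 fold change of 0.00. Their summed level was 1390 to 1600 TPM in responders and 994 to 1330 TPM in non-responders, without overlap. The TPM scale was itself shifted between these groups, as given above. Of markers of tissue that can adhere to a subcutaneous tumor, 0 of 10 keratinocyte, 0 of 5 tested sebocyte, 0 of 7 adipocyte, and 0 of 8 muscle markers were called, and 0 of these had an unadjusted p under 0.05. Summed keratinocyte markers ran from 6.87 TPM in 14R to 820 TPM in 30R, and muscle markers from 26.8 TPM in 30L to 1390 TPM in 14R. Standard errors on the log2 scale were 0.76 to 1.22 for keratinocyte and 0.72 to 0.97 for muscle markers, so large differences could go uncalled. DESeq2 was not counted for these lists. Sebocytes make much sterol and lipid, and the summed level of their 6 markers was at most 15.3 TPM, in 30R. Of fibroblast markers, 1 of 7 was called higher, where 5.08% of all genes were, and 0 of 6 endothelial and 0 of 6 tested colon epithelium markers were called. Summed endothelial markers were at 93.9 to 122 TPM in responders and 49.5 to 88.4 TPM in non-responders, without overlap. The part of proliferation or of these tissues in the differences was not tested.

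The second comparison was of responders with control IgG tumors. At an adjusted p under 0.05 in edgeR, 0 of the 7 genes were called, where 13.2% of all genes were called and 7.88% were called higher in responders. DESeq2 also called 0 of the 7, and 1 had an unadjusted p under 0.05 in edgeR, where 27.9% of all genes did. That gene was Sqle, at a log2 fold change of 0.27 (SE 0.11, edgeR adjusted p = 0.131). Srebf2 had 0.16 (SE 0.11, edgeR adjusted p = 0.383), Idi1 0.13, Hmgcs1 0.11, and Insig1 0.10. Lss had 0.00 (SE 0.13), and Fdft1 had -0.09 (SE 0.09, edgeR adjusted p = 0.59), so the sign was not shared. In CPM, 0 of the 7 were higher in every responder than in every control IgG tumor, where 8.34% of all genes were, and in TPM 0 were, against 12.1%. Fitted fold changes were above 0 for 5 of the 7 and for 48.4% of all genes. Ebp alone was called among the 14 other enzymes, at 59.1 to 67.6 CPM in responders and 42.9 to 53.6 CPM in control IgG tumors (0.35 on the log2 scale, edgeR adjusted p = 0.0102). Of the 9 fatty acid genes, 0 were called by edgeR or DESeq2, and 1 had an unadjusted p under 0.05.

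The third comparison was of non-responders with control IgG tumors, and shares its tumors with the other two. In edgeR, 0% of all genes were called, and so 0 of the 7 (758 of 16287 genes, or 4.65%, had an unadjusted p under 0.05, and DESeq2 called 18 genes, 0 of them among the 7). Fdft1 had a log2 fold change of -0.29 (SE 0.10, unadjusted p = 0.0102, edgeR adjusted p = 0.931), and Lss -0.29 (SE 0.14, unadjusted p = 0.0487, edgeR adjusted p = 0.931). In CPM, 0 of the 7 were lower in every non-responder than in every control IgG tumor, where 0.528% of all genes were. In TPM, Fdft1 was at 16.7 to 24.6 in non-responders and 26.2 to 33.2 in control IgG tumors, 1 of the 7 genes lower without overlap, where 1.1% of all genes were. Hmgcs1 had -0.21, Sqle -0.12, Srebf2 -0.12, and Idi1 -0.05. Insig1 had 0.03, the only positive value. Without the lone tumor 33R, Lss was at -0.16 and Srebf2 at 0.00. Side by side, then, the log2 fold change of responders was 0.40 against non-responders and 0.27 against control IgG tumors for Sqle, and 0.21 and -0.09 for Fdft1. Whether these differences differed was not tested beyond the comparisons themselves.

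Some of the 7 genes varied together over the tumors. Correlations were computed over log2 CPM in 14 tumors from 11 mice, which share library and depth between genes, and they are a description without a test. Hmgcs1, Idi1, and Insig1 had Pearson's r of 0.76 for Hmgcs1 and Idi1 (Spearman's rho 0.67), 0.75 for Hmgcs1 and Insig1 (rho 0.59), and 0.76 for Idi1 and Insig1 (rho 0.77). After group means were subtracted, these were 0.75, 0.78, and 0.77. Sqle, Lss, and Srebf2 had r of 0.80 for Sqle and Srebf2 (rho 0.76), 0.76 for Sqle and Lss (rho 0.68), and 0.87 for Lss and Srebf2 (rho 0.58). After group means were subtracted, these were 0.69, 0.80, and 0.89. Fdft1 had 0.72 with Lss (rho 0.82) and 0.63 with Sqle (rho 0.5), or 0.59 and 0.79 after that subtraction. With the remaining genes Fdft1 had from 0.37 (Idi1) to 0.53 (Hmgcs1). The lowest values were -0.14 for Idi1 and Srebf2, -0.04 for Idi1 and Lss, and -0.04 for Insig1 and Srebf2, and Hmgcs1 had 0.59 with Sqle. The order of the pairs rested in part on 33R. Without it, Lss and Srebf2 had 0.53, whereas Lss and Insig1 had 0.66 (0.13 with it), Sqle and Insig1 0.62 (0.36), and Idi1 and Sqle 0.60 (0.35), and Idi1 and Srebf2 had 0.15. On the TPM scale all 21 pairs were positive, from 0.34 to 0.94.

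**Figure D3:**
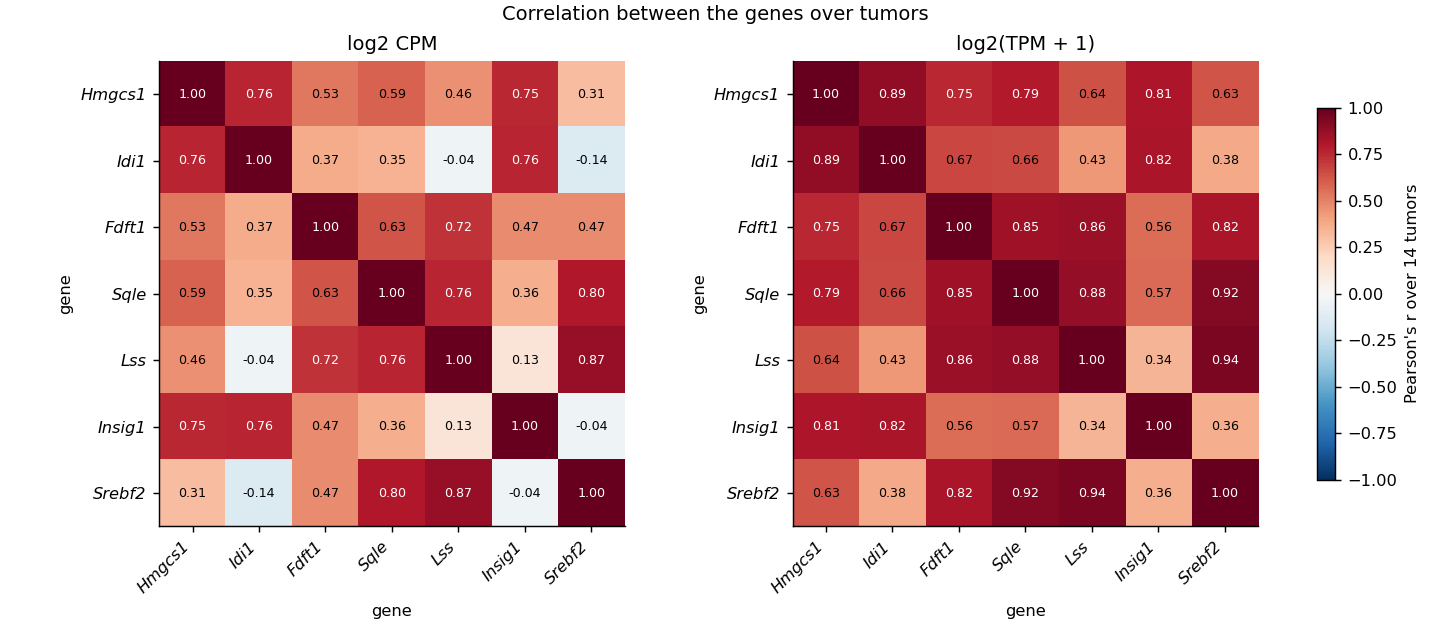
Pearson's r between each pair of the 7 genes over 14 tumors, on log2 CPM (left) and log2(TPM + 1) (right), by color and number. Idi1 and Insig1 have values near 0 with Srebf2 on the left (-0.14 and -0.04), and all pairs are positive on the right.

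As a score for each tumor, log2 CPM of each gene was converted to z-scores over the 14 tumors and averaged over the 7 genes. The highest scores were 1.22 in responder 35L, 0.98 in control IgG tumor 14L, and 0.87 in responder 26R. The lowest were -1.2 in 33R and -1.15 in 29L, both non-responders, and -0.51 in responder 24L. The scores of control IgG tumors were from -0.45 to 0.98, those of responders from -0.51 to 1.22, and those of non-responders from -1.2 to 0.15. The scores of the groups overlapped, and the 5 highest were all of responders or control IgG tumors. Among the 5 genes outside the 7 whose log2 CPM was most correlated with this score over the 14 tumors were Stard4 (r = 0.89), Fdps (0.88), Mtmr11 (0.87), and Mvd, the last enzyme before the isoprenoid units (0.86). The values without 33R were 0.89, 0.86, 0.83, and 0.91. Among 16280 genes ranked this way, Hsd17b7 was at 6, Cyp51, the enzyme after Lss, at 9, Dhcr7 at 12, and Sc5d at 13. Not all enzymes of the pathway followed the score. Ebp, the enzyme called in both comparisons of responders, ranked 2575 (r = 0.33), and Tm7sf2 5939 (r = 0.14). Of the regulators, Insig2 had r = -0.55 and Scap 0.30.

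The tumors of a mouse were alike in these genes in mouse 30 and differed more in mice 14 and 33. In mouse 14 (control IgG), 6 of the 7 genes were higher on the left, with a median absolute log2 ratio of 0.21. Idi1 was the exception, at 88.3 CPM on the left and 113 on the right. The tumors of mouse 30 (responders) had a median of 0.08 and at most 0.22. Those of mouse 33 (non-responders) differed most, with a median of 0.31 and a maximum of 0.67 for Lss. There Hmgcs1, Fdft1, Sqle, Lss, and Srebf2 were higher in 33L, whereas Idi1 (79.2 and 96.1 CPM) and Insig1 (64.4 and 75.4 CPM) were higher in 33R. The 3 pairs allow no test.

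**Figure D4:**
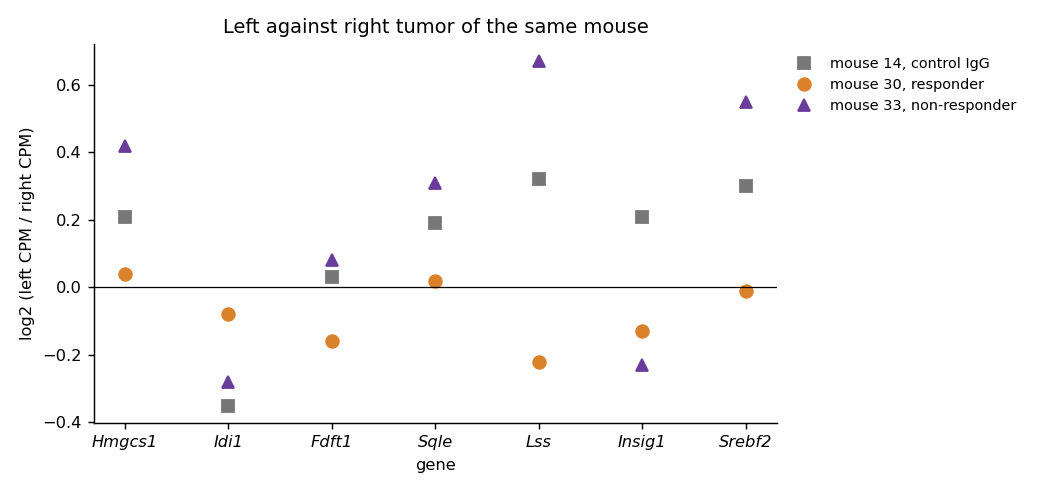
Log2 ratio of the left to the right tumor's CPM (y axis) for each gene in the 3 mice with a tumor from each flank; each point is 1 mouse. Mouse 30 stays within 0.22 of 0, whereas mouse 33 reaches 0.67 for Lss and 0.55 for Srebf2, and Idi1 is below 0 in all 3 mice.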

How the data were processed

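Data were bulk RNA-seq of 14 CT26 tumors from 11 mice, of which 5 had control IgG and 9 had anti-PD-1 (5 responders and 4 non-responders). Groups and tumor names were taken from the labels. The authors used STAR for alignment to mm10 and RSEM for quantification at default settings, as described for their cell lines and cited for the tumors. The version of the gene annotation was not given in the sources used here. The deposited expected counts are what RSEM estimated as fragments per gene, shared fragments being divided, without normalization. The deposited TPM values were scaled by effective gene length and to a fixed total by the authors, and the deposited FPKM values, scaled by length and library size, were used for no result. The deposited effective lengths were used for fragment length and the length trend.

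Identifiers were matched to the GENCODE M21 annotation of mm10, which named 53620 of 53801 genes. Expected counts were rounded for edgeR 4.0.16 under R 4.3.3 (TMM, filterByExpr, quasi-likelihood test, Benjamini-Hochberg adjustment over 16287 genes at 0.05), with all 14 tumors in a single fit without covariates. A prior count of 2 was added for log2 CPM and a pseudocount of 1 for log2 TPM. P-values measure the spread between tumors, some of which share a mouse. No pair of tumors of the same group agreed within sampling noise (lowest chi-square per gene 20.6), and depth (33237744 to 48481461 counts) limits precision by counting error only. Scripts were tested on simulated data. Alternatives were DESeq2 1.42.0, limma 3.58.1 (voom, voom with a random effect of mouse, and log2 TPM), other normalizations and filters, 1 library per mouse, the compared groups alone, a length offset (loess, span 0.5), and omission of each tumor; omission of mouse 33 was added after the data were seen.

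The genes and lists were chosen with earlier results of these data known. Named are the 7 genes, at most 4 called genes of each pathway list with the smallest p (otherwise those with the smallest p), and the 5 genes most correlated with the score; further list genes (such as Scap, Insig2, Hsd17b7, Cyp51, Dhcr7, Sc5d, and Tm7sf2) and markers were named after their values were seen. Some results are not reported here.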

Additional observations from a re-analysis of the deposited data

Results flagged for a closer look

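Within each group, the gap between the lowest or highest tumor and its neighbour was compared with Dixon's critical value for CPM of the 7 genes, in 21 sets of a gene and a group, of which 2 passed. Chance passes about 1 in 20 such sets. Sqle was at 134 CPM in 24L, the lowest of 5 responders, with a gap of 0.737 of the range, above the critical value for 5. Lss was at 23.9 CPM in 33R, the lowest of 4 non-responders, with a gap of 0.885 of the range, above the critical value for 4. Tumor 33R had the longest mean fragment length (287.8 bases), and tumor 24L the highest summed T cell marker level (80.4 TPM). The part of these in the low values was not tested.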

How the results depend on the processing

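Between responders and non-responders, the 7 genes kept a positive fold change under all 11 alternatives, and in the fits without 1 tumor only Insig1 turned (range -0.11 to 0.17). Of the 7, 0 were called, against 1 with DESeq2, upper quartile normalization, or a filter of 1 CPM (Sqle each time), 2 with limma-voom and a random effect of mouse (Sqle and Srebf2) or TPM (Sqle and Fdft1), and 0 to 1 without 1 tumor. The adjusted p of Srebf2 was 0.0413 with that random effect, where the fitted correlation of tumors of a mouse was -0.282. A negative correlation does not make the test more cautious about tumors that share a mouse. With 1 library per mouse, the log2 fold change was 0.14 for Srebf2 and 0.32 for Sqle, the lowest of the alternatives, and neither was called. Genes called were 1612, against 2634 with DESeq2, 2973 with limma-voom and a random effect of mouse, 689 with the 2 groups alone, 520 with 1 library per mouse, 59 without mouse 33, and 569 (without 24L) to 1978 (without 29L) without 1 tumor, with 615 without 32R, 686 without 30R, and 793 without 33R. Fatty acid genes called were 2 to 8 under alternatives. Against control IgG tumors, genes called in responders were 2147, against 3255 without mouse 33 and 1190 (without 20R) to 3385 (without 33R) without 1 tumor, with 1192 without 24L and 1387 without 30R. Genes called in non-responders were 0, against 18 with DESeq2, 3 without a filter, and 0 to 5 (without 35L) without 1 tumor.

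Values that turned were small and not called. In responders against control IgG tumors, Fdft1 was 0.04 with TPM, and Lss was 0.00 with limma-voom or without mouse 33, 0.01 with upper quartile normalization, no filter, a filter of 1 CPM, or the 2 groups alone, and 0.17 with TPM. Without 1 tumor, Hmgcs1 ranged from 0.00 to 0.23, Lss from -0.04 to 0.06, and Insig1 from -0.03 to 0.19. In non-responders against control IgG tumors, Insig1 was -0.05 with 1 library per mouse, -0.1 with TPM, and -0.13 without mouse 33, and Srebf2 was 0.04 without mouse 33. Without 1 tumor, Idi1 ranged from -0.19 to 0.09, Insig1 from -0.07 to 0.21, and Srebf2 from -0.21 to 0.00. The omission of mouse 33 was chosen after seeing the data and leaves fewer tumors, and the other causes were not tested. No paired analysis was possible because tumors of the same mouse always lay in the same group.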

Other observations

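Genes that carry cholesterol out of cells, store it, or answer to the oxysterol receptors LXR were looked at as a further list. Of 10 such genes, 3 were called higher in responders than in non-responders, where 5.08% of all genes were, and the same 3 higher than in control IgG tumors, where 7.88% were, in comparisons that share the responders. The median log2 fold change of the 10 genes was 0.23 and 0.27, with a range from -0.56 to 0.93 against non-responders. Nr1h3, which encodes LXR alpha, was at 7.24 to 21.2 CPM in responders, 6.06 to 10.2 CPM in non-responders, and 3.36 to 5.44 CPM in control IgG tumors. The gene had a log2 fold change of 0.93 against non-responders (edgeR adjusted p = 0.0393) and 1.78 against control IgG tumors (edgeR adjusted p = 0.000991). Abcg1, a cholesterol exporter, was 1.73-fold (edgeR adjusted p = 0.0338) and 2-fold higher (edgeR adjusted p = 0.00537), with 26.4 to 67.3 CPM in responders, 22 to 25.2 CPM in non-responders, and 18.4 to 23.9 CPM in control IgG tumors. Lipa, the lysosomal acid lipase that frees cholesterol from its esters, had 0.37 (edgeR adjusted p = 0.0387) and 0.54 (edgeR adjusted p = 0.00314).

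These 3 genes did not follow the mean score of the synthesis genes over the 14 tumors (Pearson's r of 0.02 for Abcg1, -0.03 for Nr1h3, and 0.10 for Lipa, as a description). Summed macrophage markers were at 1780 to 2420 TPM in responders and 1370 to 1600 TPM in non-responders, on the TPM scale that was shifted between these groups. By edgeR, 1 of the 8 markers was called higher, where 5.08% of all genes were. Macrophages express all 3 genes, and the part of these cells was not tested. The calls against control IgG tumors held in 14 of 14 fits without 1 tumor, whereas against non-responders 0 of the 10 genes were called without 24L, 30L, 30R, or 32R, and 0 without mouse 33. Against non-responders, 0 of the 10 were also called with 1 library per mouse or with the 2 groups alone, and 1 with limma-voom. Without mouse 33 the log2 fold changes were 1.03 for Nr1h3, 0.75 for Abcg1 (0.79 with it), and 0.52 for Lipa.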
